A study of Homo sapiens with 16 samples.

Results

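The interferon regulatory factor (IRF) genes IRF1, IRF2, IRF3, IRF4, IRF5, IRF7 and IRF8 were followed by the H3K27ac at their loci. Their members were the open-chromatin windows whose nearest annotated gene was 1 of the 7 and whose centre lay at most 50000 bp from its transcription start site (TSS), which gave 60 of 151654 windows of 1000 bp. IRF1 held 15 windows, IRF8 14, IRF5 10, IRF2 and IRF4 8 each, IRF7 4 and IRF3 1. The nearest start site names a window and does not show which gene it acts on. A further 5 windows of these genes lay beyond the limit: the closest was an IRF4 window at 83246 bp, which held too few tags to be tested, and the outermost windows inside it were those of IRF8 at -47561 and -45291 bp. Each window is named below by its gene and by the distance in bp of its centre from the annotated TSS nearest to it, a minus sign marking upstream. A gene can have more than 1 annotated TSS, so distances within a gene need not share a zero point. At IRF5 the windows at -2048 bp and further upstream are measured from another TSS than those at +5 and -484 bp. The IRF7 windows at -17 and -71 bp likewise have different ones.

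H3K27ac ChIP-seq was done on THP-1, a human monocytic line derived from acute myeloid leukemia. Of the 4 groups, the first was WT cells, labelled as Cas9 only, left untreated, and the second the same cells given IFNα at 1000 U/ml for 6 h. The other two were USP18 knockout cells (USP18-/-), untreated and given the same IFNα. Each group had 2 libraries. The study describes them as biological replicates and independent samples, and p-values measure the spread between these libraries. The knockout was made with Cas9 and sgRNAs, and the study's methods describe clones grown from sorted single cells, so genotype and clone cannot be told apart. USP18 removes ISG15 from proteins and restrains signalling from the type I interferon receptor, and the comparisons ask how far its loss changes H3K27ac at these loci with and without IFNα.

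Libraries held 9046141 to 12935454 tags in the windows, and levels are given as counts per 1000000 tags (CPM) after TMM scaling. All windows are 1000 bp long, so their length does not set genes apart. The levels were not corrected by the input libraries, so an order of genes describes tags and not a corrected level. With 123276 windows tested, the USP18 window at +111 bp had mean levels of 7.74, 16.5, 8.34 and 45.4 CPM in the 4 groups, a promoter mark that does not check the deletion itself. Start-site windows were present for 7 of 9 monocytic marker genes (summed levels of 187 to 223 CPM over the groups), with no window within the limit for MPO and ELANE. They were present for 1 of 12 markers of T, B, erythroid and epithelial cells (CD79A, 4.69 to 7.12 CPM). The monocytic sum came mostly from SPI1 and AZU1 (66.9 and 79.8 CPM in untreated WT), which stood at 130 and 34.6 CPM in treated USP18-/- cells. CSF1R and CD14 held 1.73 and 4.07 CPM in untreated WT. Scaling by the plain sum of counts instead of TMM lowered the median log2 fold change of all windows to -0.14 for IFNα in USP18-/- cells, -0.16 for genotype without IFNα and -0.27 for genotype with IFNα, so changes are to be read against that shift.

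IRF proteins share a DNA-binding domain that reads the interferon-stimulated response element (ISRE), in which pairs of GAAA repeats are spaced by a few bases. Type I interferon acts through a complex on ISREs that includes STAT2 and IRF9, while STAT dimers bind the palindromic gamma-activated site (GAS). Several IRF genes are themselves interferon targets, and IRF4 and IRF8 also bind composite sites with the ETS factor PU.1 (EICE). H3K27ac marks active promoters and enhancers.

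The reference sequences (hg38) under the largest responses are shown first, each read 5′ to 3′ on the strand where the repeats read GAAA, with the ISRE core (GAAANNGAAA) in capitals. They are shown because they come from the windows that IFNα raised in USP18-/- cells and that hold such a core, at IRF7, IRF2, IRF1 and IRF8. Where a stretch touched an annotated UTR only 30 bases are given. The IRF7 site (chr11:615684-615713, plus strand) lies in a UTR near the start site, in the windows at -17 and -71 bp. The IRF2 -101 window holds one core downstream of the start (chr4:184474435-184474464, plus strand, in a UTR) and another upstream (chr4:184474738-184474867, minus strand). The IRF1 -6163 site (chr5:132496965-132497094, minus strand) is intergenic in the deposited annotation and intronic to longer IRF1 transcripts in GENCODE v44. The IRF2 +25537 window, in the first intron of the gene, has cores at chr4:184448792-184448821 (minus strand) and chr4:184449050-184449079 (plus strand), the former within a UTR of an alternative transcript. The IRF8 -36112 site (chr16:85862954-85863089, plus strand) lies in an exon of the long noncoding RNA gene ENSG00000289932 and holds 2 overlapping cores.
IRF7 -17: aggctcccggGAAAGCGAAAcctaaacagt
IRF2 -101, downstream: tagggtatgtGAAATGGAAAtgaaagcccg
IRF2 -101, upstream: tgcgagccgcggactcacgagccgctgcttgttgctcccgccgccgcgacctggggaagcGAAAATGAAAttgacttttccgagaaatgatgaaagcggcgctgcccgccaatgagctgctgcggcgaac
IRF1 -6163: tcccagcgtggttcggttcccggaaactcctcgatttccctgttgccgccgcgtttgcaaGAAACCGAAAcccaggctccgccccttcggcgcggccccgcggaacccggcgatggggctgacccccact
IRF2 +25537, first: tgtcatgatcGAAAATGAAActattctggg
IRF2 +25537, second: actgagaacaGAAACCGAAAccaggggtga
IRF8 -36112: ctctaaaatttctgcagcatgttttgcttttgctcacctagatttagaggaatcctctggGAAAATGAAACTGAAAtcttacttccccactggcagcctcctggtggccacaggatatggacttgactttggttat

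For contrast, 2 start-site windows without an ISRE core are shown, with the nearest related element in capitals. The IRF5 +5 window holds an EICE core, GGAANNGAAA (chr7:128940627-128940656, minus strand). The IRF1 -137 window holds a GAS core, TTCNNNGAA (chr5:132490829-132490957, plus strand).
IRF5 +5: cggccccaggGGAAACGAAAgtggctagac
IRF1 -137: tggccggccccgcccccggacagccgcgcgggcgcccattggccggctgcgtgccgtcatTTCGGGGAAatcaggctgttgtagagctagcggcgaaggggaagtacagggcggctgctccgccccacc

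At the start sites of untreated WT cells the IRF genes differed in level and 1 was nearly bare. IRF5 was highest with a mean of 48.7 CPM, followed by IRF7 (27.5), IRF8 (25.1), IRF2 (24.5), IRF3 (21.5) and IRF1 (21.3), and IRF4 stood at 0.43 CPM. The libraries of IRF8 and IRF2 overlapped, as did those of IRF3 and IRF1, while the other neighbours in this order did not. Among the start-site windows of 14275 genes, IRF5 ranked at the 95.3rd percentile and IRF4 at the 1.4th. With IFNα the order in WT cells became IRF7 (65.1 CPM), IRF5 (45.3), then IRF2, IRF8, IRF1 and IRF3 between 25.9 and 22.8, each overlapping the next. In USP18-/- cells with IFNα, IRF7 (139 CPM) and IRF5 (129 CPM) overlapped at the top, at the 99.3rd and 99.1st percentiles, followed without overlap by IRF2 (87.3), IRF1 (52.3), IRF3 (30.1) and IRF8 (18.8). IRF8 stood at rank 3 of 7 in untreated WT cells, where it overlapped IRF2, and at rank 6 in USP18-/- cells. It held that rank in USP18-/- cells both untreated (15.9 CPM) and with IFNα.

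**Figure D1:**
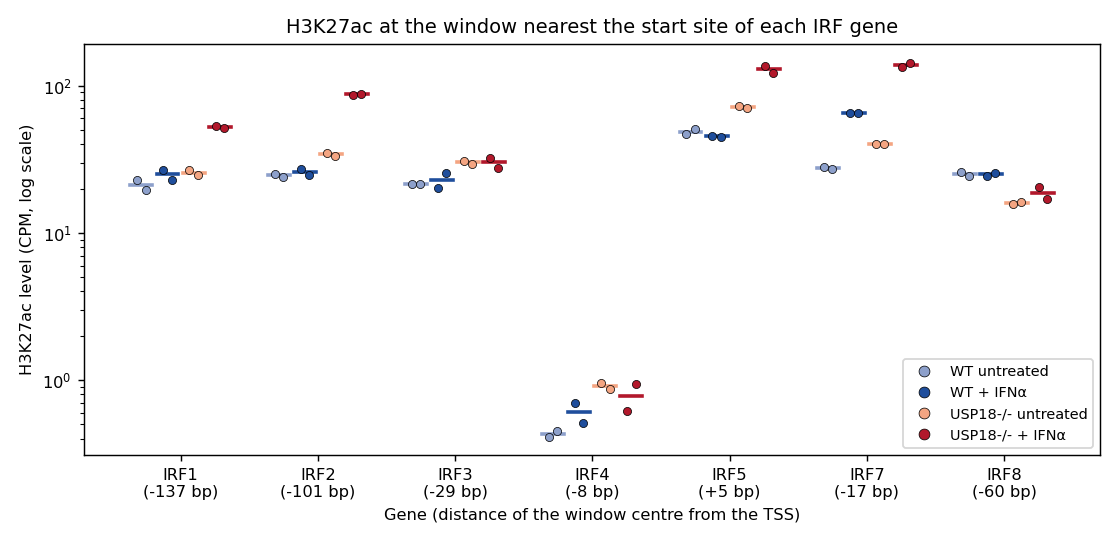
H3K27ac level in CPM (log axis) at the window nearest the TSS of each gene. Points are the 2 libraries of a group and short lines their mean. IRF7 is higher with IFNα in both genotypes, IRF1, IRF2 and IRF5 have their highest values in USP18-/- cells with IFNα, and IRF4 stays under 1 CPM.

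The 58 tested windows were compared between groups in a fit of the whole table, and the p-values of edgeR's quasi-likelihood test were adjusted over all tested windows by Benjamini-Hochberg. A call needed a change of more than 2-fold and an adjusted p under 0.05. The 2 windows left out, both of IRF4 at +17023 and +31207 bp, held at most 11.5 tags in any library. The filter keeps a window that is high in a single group, and 33 of the 60 windows overlap another of the table, so the counts below are descriptions and not independent events.

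IFNα in WT cells raised 2 of 58 windows, IRF7 -17 and IRF8 -36112, and lowered none. Over all windows, 0.344% were called higher and 0.0381% lower. By the adjusted p alone 4 member windows were higher, adding IRF7 -71 and IRF1 -6163, and none was lower, against 0.653% and 0.153% of all windows. In USP18-/- cells IFNα raised 11 windows in 7 separate stretches and lowered none by 2-fold, where 7.14% of all windows were called higher and 4.28% lower. By the adjusted p alone 16 were higher and 10 lower, against 13.0% and 11.2%. With the sum of counts as the scale the 2-fold calls became 7 higher and 3 lower, against 6.05% and 6.41% of all windows. The median log2 fold change of the 58 windows was 0.05 in WT and 0.09 in USP18-/- cells, beside -0.01 and -0.01 for all windows.

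The IFNα effect itself differed between genotypes by more than 2-fold in 4 windows, all with the larger rise in USP18-/- cells: IRF1 -6163, IRF2 -101, IRF2 +25537 and IRF8 -36112. The share of all windows called was 4.66% in that direction and 2.51% in the other, where no member was called. With the sum of counts the member calls numbered 4 and 0 as well, against 3.79% and 3.88%. By the adjusted p alone the effect was more positive in 14 windows and more negative in 7, against 6.84% and 5.22%. This comparison uses all 8 libraries. The plot of the IFNα effect in one genotype against the other rests on separate libraries for its axes.

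**Figure D2:**
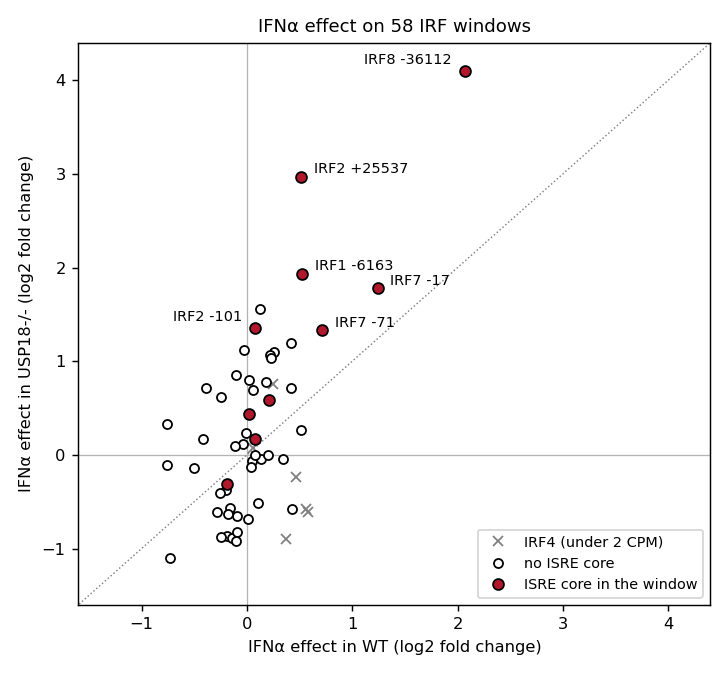
Log2 fold change with IFNα in WT (horizontal) and in USP18-/- cells (vertical) for the 58 tested windows, each a point; the dotted line marks equal effects. Filled points hold an ISRE core, and the 6 named ones are those with a core that were called higher in USP18-/- cells; crosses are the IRF4 windows, at very low levels.

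Between untreated genotypes 7 member windows were higher in USP18-/- cells and 2 lower, where 5.66% and 10.8% of all windows were called. The sum of counts gave 6 and 3, against 4.02% and 13.7%. By the adjusted p alone 23 were higher and 6 lower, against 16.9% and 16.8%. With IFNα 18 windows were higher in USP18-/- cells, in 11 stretches, and 4 lower, against 11.3% and 13.4% of all windows. The sum of counts gave 12 and 5, against 7.10% and 19.6%. By the adjusted p alone 23 were higher and 9 lower, against 21.3% and 19.4%. No window called higher with IFNα in USP18-/- cells had been called higher there before treatment. Those calls use the untreated USP18-/- libraries with opposite signs, which by itself pushes them apart. No share over all windows was taken for this overlap. The genotype and IFNα comparisons share libraries, so their values are given side by side and not correlated. In all, 32 of the 58 windows were called in none of the 5 comparisons, a count for which no share over all windows was taken.

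**Figure D3:**
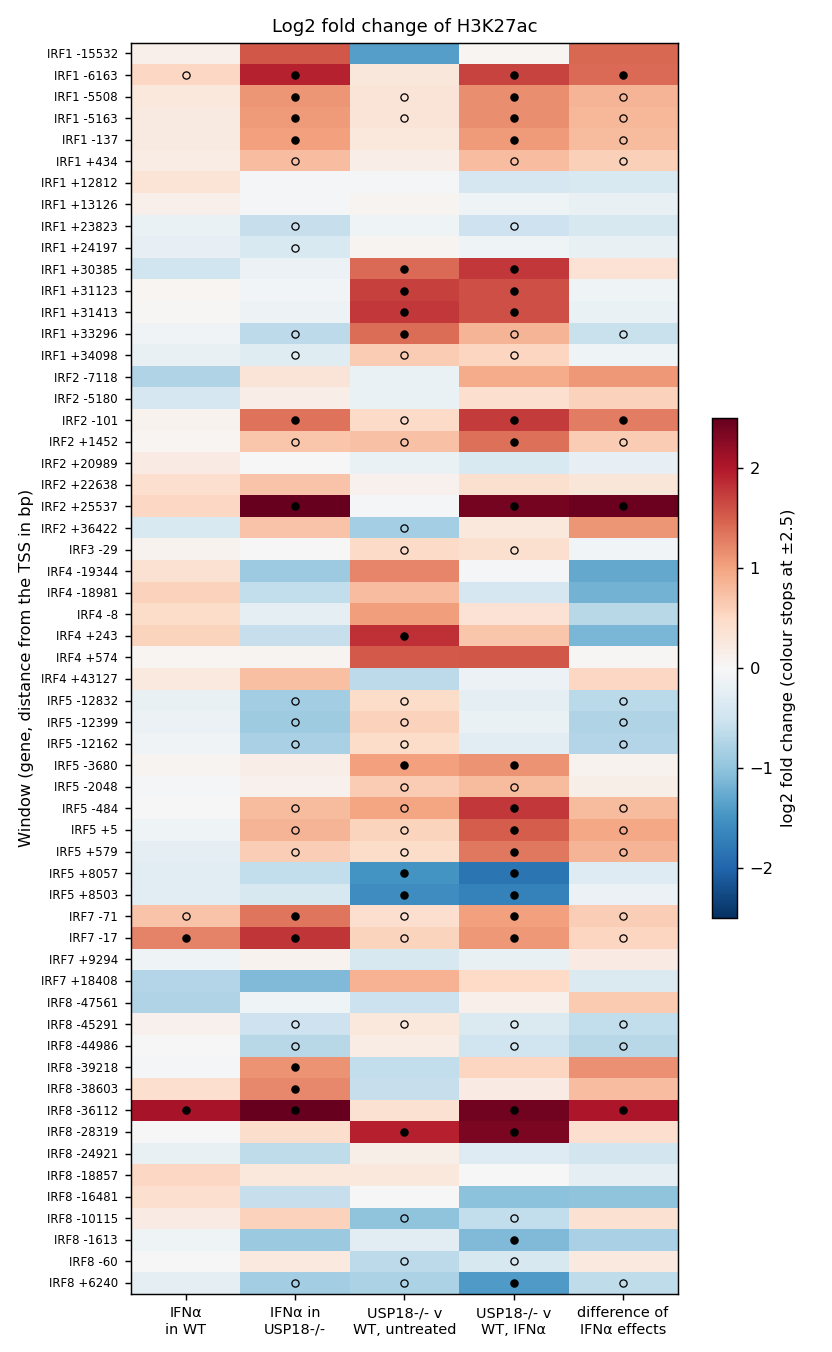
Log2 fold change of H3K27ac for the 58 tested windows (rows, by gene and distance from the TSS) in the 5 comparisons (columns). Filled circles mark changes above 2-fold at an adjusted p under 0.05 and open circles an adjusted p under 0.05 alone; the IFNα columns show rises at IRF1, IRF2, IRF7 and IRF8, and the genotype columns a block of higher windows at IRF1 +30385 to +33296 and lower windows at the 3′ end of IRF5.

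IRF7, the factor that drives IFNα gene transcription in infected cells and is itself an interferon target, was the start site that responded in both genotypes. Its -17 window (chr11:615245-616245), which carries the ISRE core shown above, had 27.9 and 27.1 CPM in untreated WT libraries and 65.2 and 64.9 with IFNα. In USP18-/- cells it had 40.4 and 40.4 untreated and 134 and 143 with IFNα. The mark is an average over the cells of a library, so fewer marked cells and less mark per cell cannot be told apart here or below. No groups overlapped, and the order was WT untreated, USP18-/- untreated, WT with IFNα and USP18-/- with IFNα. IFNα raised it by 1.24 ± 0.10 (SE) on the log2 scale in WT cells (2.37-fold, adjusted p = 3.2e-17) and by 1.78 ± 0.09 in USP18-/- cells (3.43-fold, adjusted p = 2.6e-30). The rise was larger in USP18-/- cells by 0.54 ± 0.14 (adjusted p = 0.0026). The genotype difference was 0.56 ± 0.10 without IFNα (adjusted p = 5.7e-06) and 1.09 ± 0.09 with it (adjusted p = 5.9e-19), and these were 0.24 and 0.74 when start-site windows were fitted alone. The -71 window, which overlaps it, rose by 0.71 ± 0.10 in WT and 1.33 ± 0.10 in USP18-/- cells (adjusted p = 7.6e-07 and 2.1e-21). The other IRF7 windows, at +9294 and +18408 in introns of PHRF1, stood at 0.20 to 2.1 CPM and passed no test. The 455 other tested windows within 5 Mb had a median genotype difference of 0.24 without IFNα and 0.26 with it.

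IRF1, an activator of interferon and antigen presentation genes, gained H3K27ac at its start site and at a separate cluster of windows about 5 to 6 kb upstream. No window lay between these. At -6163 (chr5:132496436-132497436) the WT libraries held 18.0 and 18.0 CPM untreated and 27.6 and 24 with IFNα. The USP18-/- libraries held 20.7 and 23.2 untreated and 84.8 and 82.3 with IFNα. The treated USP18-/- libraries stood far above the others, and the treated WT libraries lay slightly above both untreated groups. The log2 change with IFNα was 0.52 ± 0.12 in WT (adjusted p = 0.013) and 1.93 ± 0.11 in USP18-/- cells (3.81-fold, adjusted p = 7.2e-28), and the difference was 1.41 ± 0.17 (adjusted p = 1.3e-10). The WT change did not pass without either untreated WT library (0.52 in both cases) or without treated WT library 1 (0.42).

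The start-site window of IRF1 (-137, chr5:132490410-132491410) moved less. It had 22.9 and 19.6 CPM in untreated WT, 26.9 and 22.97 in treated WT, 26.5 and 24.6 in untreated USP18-/- and 52.9 and 51.7 in treated USP18-/- libraries. Treated WT and untreated USP18-/- libraries overlapped, just above untreated WT, and the treated USP18-/- libraries lay well above all of them. IFNα raised it by 1.03 ± 0.11 in USP18-/- cells (adjusted p = 1e-12) and changed it by 0.23 ± 0.13 in WT (adjusted p = 0.60), a difference of 0.80 ± 0.17 (adjusted p = 0.00023). That rise lies close to the 2-fold limit and came to 0.90 with the sum of counts. The window at -5163, the highest of the locus with a mean of 59.2 CPM, ran from 39.4 CPM in both untreated WT libraries to 106 and 99.0 in the treated USP18-/- ones, with a rise of 1.06 ± 0.09 in USP18-/- cells (adjusted p = 5.6e-17) and a difference between genotypes of 0.84 ± 0.14 (adjusted p = 1.6e-06). The window at -5508 overlaps it and rose by 1.10 ± 0.10.

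Another set of windows, from +30385 to +33296, lay far downstream of the IRF1 start site, in introns of the antisense transcript IRF1-AS1. In GENCODE v44 they also lie in introns of longer IRF1 transcripts. These windows differed by genotype. Of these only +33296 also changed with IFNα. At +31123 (chr5:132459150-132460150) WT libraries held 12.8 and 14.3 CPM untreated and 14.3 and 13.8 with IFNα, and USP18-/- libraries 45.1 and 44.4 untreated and 45.9 and 39.8 with IFNα. All 4 USP18-/- libraries lay above all 4 WT libraries, and the IFNα groups overlapped their controls. The genotype difference was 1.72 ± 0.12 without IFNα (3.29-fold, adjusted p = 7.2e-21) and 1.61 ± 0.13 with it (adjusted p = 8.5e-20), while the IFNα effects were 0.05 ± 0.14 and -0.06 ± 0.11. The windows at +30385, +31413 and +33296 were also called higher in untreated USP18-/- cells, by 1.41, 1.77 and 1.40. At +33296 IFNα then lowered the level in USP18-/- cells by 0.65 ± 0.11 (from 50.2 and 50.4 to 31.1 and 33.0 CPM, adjusted p = 8e-07). The windows at +23823 and +24197 fell by 0.57 and 0.38 there. The 402 other tested windows within 5 Mb had a median genotype difference of 0.05 without IFNα.

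IRF2, which competes with IRF1 for the same sites and mostly represses, was raised by IFNα in USP18-/- cells at its start site and at an intronic window. The -101 window (chr4:184474173-184475173) had 25.2 and 23.9 CPM in untreated WT, 27.1 and 24.6 in treated WT, 35.1 and 33.2 in untreated USP18-/- and 86.8 and 87.9 in treated USP18-/- libraries. The WT groups overlapped, the untreated USP18-/- libraries lay above them and the treated ones far above all. The change with IFNα was 0.08 ± 0.12 in WT (adjusted p = 0.91) and 1.35 ± 0.10 in USP18-/- cells (2.56-fold, adjusted p = 1.1e-20), with a difference of 1.27 ± 0.15 (adjusted p = 3.1e-10). The genotype difference without IFNα, 0.48 ± 0.11 (adjusted p = 0.00033), came to 0.17 and did not pass when start-site windows were fitted alone. The neighbouring window at +1452, the highest of the locus with a mean of 48.0 CPM, had a genotype difference of 0.74 ± 0.11 without IFNα (0.43 when start-site windows were fitted alone) and 1.38 ± 0.10 with it.

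At IRF2 +25537 (chr4:184448535-184449535) the level was low in 3 groups and high in the last. WT libraries held 6.30 and 6.17 CPM untreated and 8.13 and 9.74 with IFNα, and USP18-/- libraries held 6.02 and 5.97 untreated and 48.6 and 45.2 with IFNα. The treated WT libraries lay above both untreated groups, and the treated USP18-/- libraries far above all others. IFNα raised the window by 2.97 ± 0.15 in USP18-/- cells (7.82-fold, adjusted p = 7e-31), the change in WT was 0.52 ± 0.19 (adjusted p = 0.27), and the difference of 2.45 ± 0.25 (adjusted p = 5e-13) was the largest among the 58 windows. With IFNα the genotypes differed by 2.39 ± 0.14 (adjusted p = 2.2e-26) and without it by -0.06 ± 0.20 (adjusted p = 0.87). The other 5 IRF2 windows stood at 0.35 to 4.9 CPM and none was called.

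IRF8, which with PU.1 directs monocyte and dendritic cell development, showed opposite movements along its locus. At -36112 (chr16:85862556-85863556), where 2 ISRE cores overlap, WT libraries held 0.72 and 1.27 CPM untreated and 3.87 and 4.72 with IFNα. USP18-/- libraries held 1.14 and 1.54 untreated and 22.9 and 23 with IFNα. The untreated groups overlapped, and each treated group lay above both. IFNα raised it by 2.07 ± 0.34 in WT (4.19-fold, adjusted p = 1.1e-05) and by 4.10 ± 0.23 in USP18-/- cells (17.1-fold, adjusted p = 1.4e-27), the largest IFNα effect among the 58 windows in each genotype. The difference of 2.03 ± 0.49 (adjusted p = 0.0016) was 1.55 and did not pass without untreated WT library 2. The windows at -39218 and -38603, at 1.48 to 5.63 CPM, were raised by 1.12 ± 0.29 and 1.20 ± 0.27 in USP18-/- cells (adjusted p = 0.0014 and 0.00017).

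The windows of IRF8 that carried most H3K27ac did not rise. At -45291 (chr16:85853377-85854377), the highest of the locus, WT libraries held 52.4 and 59.5 CPM untreated and 59.2 and 61.0 with IFNα, and USP18-/- libraries held 70.8 and 63.4 untreated and 47.2 and 46.6 with IFNα. The treated USP18-/- libraries were the lowest of the 8. IFNα lowered the level in USP18-/- cells by 0.52 ± 0.10 (log2 change -0.52, adjusted p = 8.9e-06), and the effect differed from that in WT by -0.62 ± 0.14 (adjusted p = 0.00046). At the start site (-60) the levels were 25.7 and 24.5 CPM in untreated WT, 24.4 and 25.5 in treated WT, 15.7 and 16.2 in untreated USP18-/- and 20.6 and 16.9 in treated USP18-/- libraries. Every USP18-/- library lay below every WT library, by -0.66 ± 0.14 without IFNα (adjusted p = 4e-05) and -0.41 ± 0.13 with it (adjusted p = 0.0081). The latter did not pass without treated WT library 2 (-0.38) or treated USP18-/- library 2 (-0.27), and it was -0.69 with the sum of counts and -0.765 when start-site windows were fitted alone. Its IFNα effects were -0.01 ± 0.13 in WT and 0.24 ± 0.14 in USP18-/- cells (adjusted p = 0.99 and 0.24). The intronic window at +6240 fell furthest between treated genotypes, with a log2 difference of -1.42 ± 0.15, from 21.6 and 24.8 CPM in WT to 8.96 and 8.36 in USP18-/- libraries.

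One further IRF8 window followed genotype alone. At -28319 (chr16:85870349-85871349) the 4 WT libraries lay between 1.18 and 2.38 CPM and the 4 USP18-/- libraries between 6.64 and 9.20, with log2 differences of 1.94 ± 0.28 without IFNα (adjusted p = 1.2e-08) and 2.36 ± 0.27 with it (adjusted p = 2.1e-12). IFNα changed it by 0.02 ± 0.37 in WT and 0.43 ± 0.20 in USP18-/- cells (adjusted p = 0.99 and 0.13). The 794 other tested windows within 5 Mb of IRF8 had a median genotype difference of 0.15 without IFNα, opposite in sign to the start site of IRF8.

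**Figure D4:**
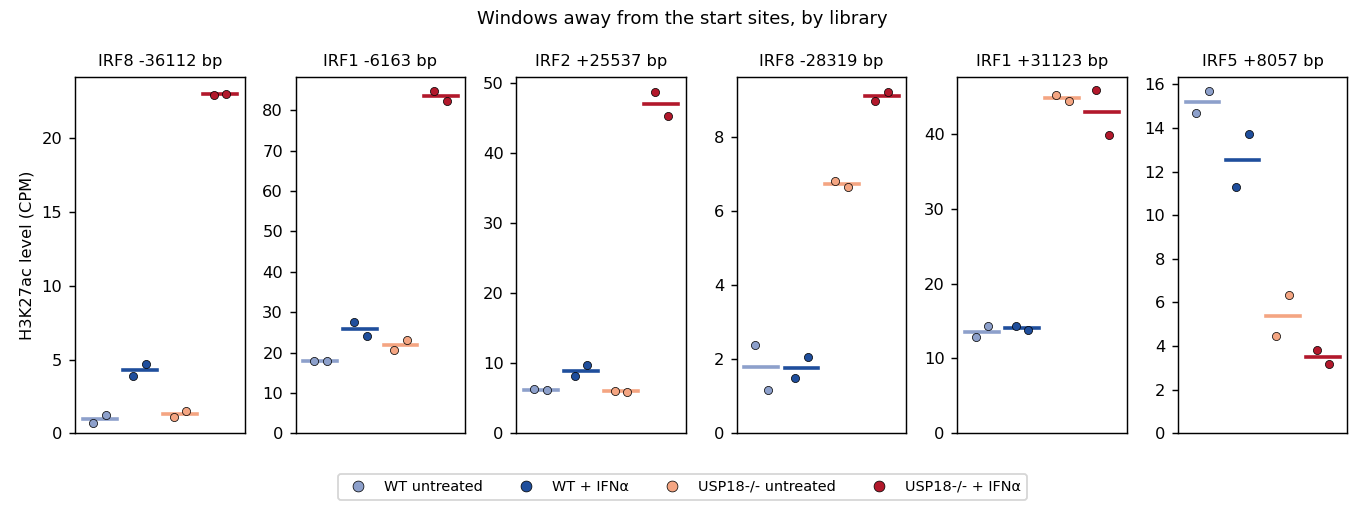
H3K27ac level in CPM by library at 6 windows away from the start sites (each panel has its own axis from 0; points are libraries, lines group means). The first 3 windows are highest in USP18-/- cells with IFNα, IRF8 -28319 and IRF1 +31123 are high in all 4 USP18-/- libraries, and IRF5 +8057 is low in them.

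IRF5, which acts downstream of Toll-like receptors on inflammatory cytokine genes, had a start site that differed by genotype before IFNα and more so after it. The +5 window (chr7:128940175-128941175) held 47.0 and 50.4 CPM in untreated WT, 45.8 and 44.7 in treated WT, 72.4 and 70.5 in untreated USP18-/- and 136 and 122 in treated USP18-/- libraries. No groups overlapped, and the treated WT libraries were the lowest. IFNα raised it by 0.85 ± 0.09 in USP18-/- cells (1.81-fold, adjusted p = 6.8e-14) and changed it by -0.11 ± 0.10 in WT (adjusted p = 0.82), a difference of 0.96 ± 0.13 (adjusted p = 1.1e-08). The genotypes differed by 0.55 ± 0.09 without IFNα and 1.51 ± 0.09 with it (adjusted p = 6.9e-07 and 4.7e-26), the first of which was 0.24 when start-site windows were fitted alone. The overlapping window at -484 (chr7:128939686-128940686) ran from 42.4 and 36.2 CPM in untreated WT and 38.2 and 41.0 in treated WT to 77.8 and 78.0 in untreated and 138 and 134 in treated USP18-/- libraries. Its genotype difference with IFNα was 1.77 ± 0.09 (3.42-fold, adjusted p = 9.2e-30).

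The IRF5 windows at -3680 and -2048 differed by genotype in the same direction as the start site. At -3680 USP18-/- cells were higher by 1.03 without IFNα and 1.12 with it (adjusted p = 1.4e-05 and 1.1e-06). At -2048 they were higher by 0.64 and 0.79 (adjusted p = 5.4e-06 and 1.7e-08). The 3′ end of the gene differed the other way. At +8057 (chr7:128948227-128949227), over the last exon, WT libraries held 14.7 and 15.7 CPM untreated and 11.3 and 13.7 with IFNα, and USP18-/- libraries held 4.45 and 6.35 untreated and 3.82 and 3.19 with IFNα. Every USP18-/- library lay below every WT library, by a log2 difference of -1.50 ± 0.19 without IFNα (adjusted p = 2.1e-10) and -1.83 ± 0.21 with it (adjusted p = 3.6e-12). The overlapping window at +8503, in the 3′ UTR, had -1.55 ± 0.21 and -1.70 ± 0.23. A group of 3 overlapping windows from -12832 to -12162 was higher in untreated USP18-/- cells by 0.45 to 0.58 and fell with IFNα there by log2 changes of -0.82 to -0.89, so that treated genotypes differed by only -0.16 to -0.27, which did not pass. The 399 other tested windows within 5 Mb had a median genotype difference of -0.16 without IFNα.

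**Figure D5:**
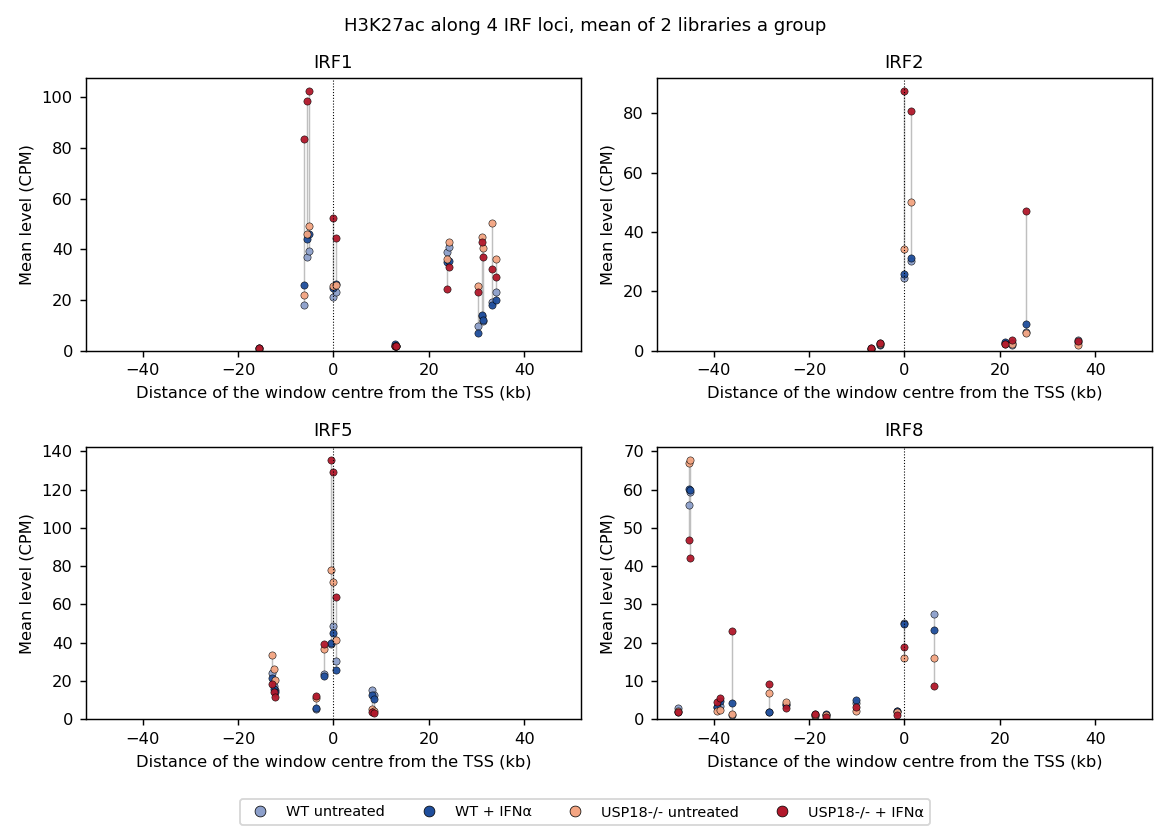
Mean H3K27ac level of each tested window (CPM, 2 libraries a group) against the distance in kb of its centre from the annotated TSS nearest to it, for IRF1, IRF2, IRF5 and IRF8. Grey lines join the groups of a window. For IRF5, windows at -2048 bp and further upstream are placed from another TSS than the rest. The windows highest in treated USP18-/- cells include those at the start sites of IRF1, IRF2 and IRF5. Among them are also an upstream cluster of IRF1, an intronic window of IRF2 and several upstream windows of IRF5 and IRF8. The tallest windows of IRF8, at -45291 and -44986 bp, are lowest in that group.

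IRF3, the ubiquitous factor that TBK1 phosphorylates to induce IFNB1, had 1 window, at -29 bp (chr19:49665404-49666404). It spans a start site shared head to head with BCL2L12, so its signal belongs to both genes. Its levels were 21.5 and 21.6 CPM in untreated WT, 20.1 and 25.4 in treated WT, 30.6 and 29.6 in untreated USP18-/- and 32.5 and 27.8 in treated USP18-/- libraries. IFNα groups overlapped within each genotype, with changes of 0.08 ± 0.13 in WT and 0.00 ± 0.12 in USP18-/- cells (adjusted p = 0.92 and 1). The genotypes differed by 0.48 ± 0.12 without IFNα (adjusted p = 0.0012) and 0.41 ± 0.12 with it (adjusted p = 0.0054). These came to 0.17 and 0.05 and did not pass when start-site windows were fitted alone, and the second was also lost with the sum of counts (0.13), without treated WT library 1 (0.24) and without treated USP18-/- library 1 (0.26). The 1194 other tested windows within 5 Mb on this part of chromosome 19 had a median genotype difference of 0.40 without IFNα and 0.43 with it, beside which the IRF3 values stand. The part of this wider shift in them was not tested.

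IRF4, a lymphoid and plasma cell factor, carried almost no H3K27ac. Its 6 tested windows lay between 0.20 and 1.5 CPM in every library. The start-site window (-8) held 0.41 and 0.45 CPM in untreated WT and 0.96 and 0.87 in untreated USP18-/- libraries. The +243 window was called higher in untreated USP18-/- cells (0.31 and 0.36 against 1.40 and 1.06 CPM, 1.83 ± 0.66, adjusted p = 0.022), a call that was lost without either untreated WT library or without untreated USP18-/- library 1, and when start-site windows were fitted alone (1.53). The highest mean, 1.03 CPM at -18981, was that of a window in no call.

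The ISRE core was searched on both strands in every window of 1000 bp. It was present in 10 of the 58 member windows (17.2%) and in 17.1% of all tested windows, so the loci as a group did not hold more of it. Among the 11 member windows that IFNα raised in USP18-/- cells 6 held a core, all at the windows shown above with their sequences, against 4 of the other 47. Over all windows the shares were 47.0% of those called higher and 15.0% of those not called. Both member windows raised in WT cells and all 4 with a larger rise in USP18-/- cells held a core, where 67.2% and 48.2% of all windows called so did. The median IFNα effect in USP18-/- cells was 1.34 for the 10 member windows with a core and -0.04 for the 48 without. A core did not always go with a rise: IRF8 -10115, IRF8 -28319, IRF5 -3680 and IRF1 +34098 each held one, and their IFNα effects in USP18-/- cells were 0.58, 0.43, 0.17 and -0.31, of which only the last passed the adjusted p.

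The 5 member windows raised without an ISRE core were IRF1 -137, -5163 and -5508 and IRF8 -39218 and -38603. The GAS core lay in all 11 member windows raised by IFNα in USP18-/- cells, against 32.9% of all windows called so, and in 21 of the 58 members (36.2%) against 25.6% of all tested windows. Overlapping windows share matches here, as at IRF1 -5163 and -5508. The EICE core lay in 9 of 58 members (15.5%, against 13.7% of all), overlapping both ISRE cores of the IRF2 -101 window, and the kappaB consensus in 16 (27.6%, against 13.9%), including IRF1 -137 and IRF7 -17. A match is a stretch of letters and not a bound site, and no test was made of these shares.

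The start-site windows most like those of the 4 called IRF genes were found by Pearson's r of log2 CPM over the 8 libraries, among 3255 to 3259 other called genes on other chromosomes or at least 1 Mb away. For IRF7 they included EPSTI1 (r = 0.997) and IFIT1 (0.994). For IRF1 they were TRIM26 (0.996), CCL8 (0.992) and ADPRHL2 (0.991), and for IRF2 MVP (0.998), LGALS8-AS1 (0.996) and TMEM219 (0.996). MVP, the major vault protein, rose from 7.72 to 34.0 CPM with IFNα in USP18-/- cells and had 4.64 and 5.64 CPM in WT cells. For IRF5 they were RLF (0.998), CFLAR (0.998) and TFG (0.997). The 8 points fall into 4 groups and share their scaling.

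Of 22 genes that act with the IRF factors, 75 windows within 10000 bp of a start site were tested. IFNα raised 4 of them in WT and 11 in USP18-/- cells and lowered 0 and 2, and 19 were higher and 2 lower in untreated USP18-/- cells, with medians of 0.05, 0.23 and 0.57. With IFNα 23 were higher and 0 lower in USP18-/- cells, and the IFNα effect differed by over 2-fold in 5 windows upward and 1 downward. These stand beside the shares of all windows given above. Among start-site windows fitted alone, 3.02% were called higher in USP18-/- cells without IFNα and 6.32% with it, and 8.05% and 11.1% lower. At IRF7 -17 that fit lowered the genotype difference without IFNα from 0.555 to 0.244. Its values are not given for the genes of this list. Among the partner factors, IRF9 rose with IFNα at its start site by 1.67 ± 0.12 in WT and 2.09 ± 0.11 in USP18-/- cells (adjusted p = 5.2e-19 and 2.5e-30), and the effects did not differ past the threshold (0.42 ± 0.17, adjusted p = 0.098). STAT2, a subunit of the ISRE-binding complex, rose in USP18-/- cells by 1.52 ± 0.12 and had 0.33 ± 0.13 in WT (adjusted p = 0.38), a difference of 1.20 ± 0.18 (adjusted p = 2.1e-07). BATF2, a basic leucine zipper factor that pairs with IRFs, moved most, from 6.74 to 47.6 CPM in USP18-/- cells (2.81 ± 0.15, adjusted p = 1.1e-29), against 3.97 and 5.44 CPM in WT.

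Of the kinases and adaptors that activate IRF3, IRF5 and IRF7, the start site of MYD88, the adaptor of most Toll-like receptors, rose with IFNα in both genotypes, by 1.12 ± 0.20 in WT and 2.23 ± 0.15 in USP18-/- cells (adjusted p = 0.00018 and 2.5e-23). IKBKE rose by 0.72 ± 0.12 in USP18-/- cells. TBK1 was lower in untreated USP18-/- cells, with a log2 difference of -0.92 ± 0.11, and rose there by 0.67 ± 0.11 with IFNα. In this list 32 windows were tested, of which IFNα raised 1 in WT and 3 in USP18-/- cells, against 0.344% and 7.14% of all windows. SPI1, which encodes PU.1, differed between genotypes by 0.57 ± 0.09 without and 0.84 ± 0.09 with IFNα, and its relative SPIB (window at -3028 bp) by 1.68 ± 0.14 and 1.70 ± 0.14. For the IRF2 corepressors, IRF2BP1, IRF2BP2 and IRF2BPL, no window of 14 was called with IFNα in either genotype. By the adjusted p alone 7 were higher and 1 lower with IFNα in USP18-/- cells, against 13.0% and 11.2% of all windows. In untreated USP18-/- cells 4 were called higher, including the IRF2BPL start site (11.97 against 27.3 CPM, 1.19 ± 0.14), against 5.66% of all windows. By the adjusted p alone 13 were higher there, against 16.9%. The genotype differences of SPI1, SPIB and the corepressors come from the fit of all windows, with none from start-site windows fitted alone.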

How the data were processed

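H3K27ac was measured by ChIP-seq in 8 libraries of THP-1 cells, 2 in each of 4 groups; 8 input libraries were not analysed here. Per the labels and the study's methods, the authors aligned reads to hg38 with Bowtie2 and counted tags with HOMER in 1000 bp windows centred on merged ATAC-seq peaks. The deposited values are expected counts: tags per window without normalization, in steps of 0.5 (52.2% of values were whole), and they were rounded to whole numbers here. The windows held 9046141 to 12935454 tags per library, out of 24712371 to 30501089 in all, which limits low windows.

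Windows with at least 10 counts in at least 2 libraries (123276) were fitted with edgeR 4.0.16 in R 4.3.3, with TMM scaling, 1 mean per group and the quasi-likelihood test, Benjamini-Hochberg adjusted over all windows. SE is the log2 fold change divided by the root of F. Annotation was GENCODE v44. Named windows of each gene were the one nearest the TSS, the one with the highest mean CPM and, for each comparison, the called one with the smallest adjusted p; others were named to complete counts of few windows. The fit was tested on simulated data. Members, lists and motifs were chosen with earlier results of these data known. Alternatives were other scaling, DESeq2 1.42.0, no filter, start-site (within 3000 bp) or distal windows alone, 1 window per overlapping chain, the 4 libraries compared, a replicate block and each library left out. The replicate numbers did not pair the libraries: deviations of libraries with the same number had correlations of 0.0019 to 0.058. A few genes and 1 stretch of sequence are not reported here.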

Additional observations from a re-analysis of the deposited data

Results flagged for a closer look

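The IFNα effect differed between USP18-/- and WT cells in 11 of the named windows at an adjusted p under 0.05 (edgeR's quasi-likelihood test of the difference), on the log2 scale, with a plus sign where the effect was more positive in USP18-/- cells. At IRF8 the difference was +2.03 at -36112 bp and -0.62 at -45291 bp, so windows of the same locus differed in opposite directions. At IRF2 it was +2.45 at +25537 bp, +1.28 at -101 bp and +0.63 at +1452 bp, the last of which did not pass without untreated WT library 1 (0.48). At IRF1 it was +1.41 at -6163 bp, +0.84 at -5163 bp and +0.80 at -137 bp. At IRF5 it was +0.96 at +5 bp and +0.78 at -484 bp, and at IRF7, the 1 start site raised in both genotypes, +0.54 at -17 bp. The clone of the knockout cannot be told apart from the loss of USP18 in any of these differences.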

How the results depend on the processing

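The alternatives kept 140 of 158 recomputed counts of called windows within 1.5 times. For IFNα in WT cells the adjusted p alone gave 4 windows higher. For IFNα in USP18-/- cells the sum of counts gave 7 higher and 3 lower, 1 window per chain 7 higher, and the adjusted p alone 10 lower; leaving out each library gave 0 to 2 lower (1 without either untreated USP18-/- library, 2 without treated USP18-/- library 2). In untreated cells the adjusted p alone gave 23 higher and 6 lower in USP18-/-, 1 window per chain 1 lower, and leaving out each library 2 to 4 lower (4 without untreated WT library 2 or either untreated USP18-/- library). With IFNα, 1 window per chain gave 11 higher and the adjusted p alone 9 lower. For the difference of IFNα effects the adjusted p alone gave 14 more positive and 7 more negative. The replicate block gave 11 windows higher for IFNα in USP18-/- cells and 3 lower in untreated USP18-/- cells, and the numbers did not pair the libraries.

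Of 895 recomputed values of 61 named changes, 25 lost their adjusted p, and 12 changed sign, all at effects near 0: the IFNα effect at IRF3 in WT was -0.101 to 0.24 without single libraries, and in USP18-/- cells -0.13 with the sum of counts, -0.005 with no filter, -0.038 with start sites alone, -0.009 with DESeq2 and -0.139 to 0.113 without single libraries. At IRF8 -60 the WT effect was 0.005 in the 4 libraries compared and -0.044 to 0.026 without single libraries. The cause was not tested. The call at IRF4 +243 rests on few tags, and windows near 1 CPM cannot show small changes.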
